A study of Homo sapiens with 19 samples.

Results

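The MHC class I presentation genes described here were the 9 genes HLA-B, HLA-C, HLA-E, HLA-F, B2M, TAP1, TAP2, TAPBP and NLRC5, chosen by symbol from the 34825 gene symbols of 2 deposited expression tables. All 9 were present in both tables and passed the filter on low values in both, which kept genes averaging 10 or more normalized counts per library. The libraries were stranded mRNA-seq of HepG2, a human liver cancer cell line, and each group carried a transfected siRNA at 50 nM for 72 h. In the INO80 experiment the cells received a control siRNA (NTG) or either of 2 siRNAs against INO80, the ATPase of a chromatin remodeling complex (siINO80#1 and siINO80#2), with 3 libraries in each group. In the drug experiment the cells were kept in 1 µM EPZ-6438, an inhibitor of the histone methyltransferase EZH2, or in its vehicle DMSO from 3 days before transfection. They then received NTG or an siRNA against MCRS1 (siMCRS1), a subunit of the same INO80 complex. This gave DMSO NTG (2 libraries), DMSO siMCRS1 (3), EPZ-6438 NTG (3) and EPZ-6438 siMCRS1 (2). As a model, HepG2 is 1 tumor line, and MCRS1 was targeted with 1 siRNA sequence only. MCRS1 also belongs to another complex, NSL, and through which complex the effects of siMCRS1 run was not tested.

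MHC class I molecules display peptides from inside the cell to CD8+ T cells and to natural killer cells, and nearly all nucleated cells make them. A heavy chain, encoded by an HLA class I gene, pairs with the light chain beta-2 microglobulin (B2M). Peptides cut by the proteasome are carried into the endoplasmic reticulum by the transporter TAP1/TAP2, and tapasin (TAPBP) holds the empty heavy chain beside that transporter until a peptide is loaded. NLRC5 is the transcriptional coactivator of the pathway. It does not bind DNA itself but is recruited to class I promoters by the RFX complex, CREB/ATF factors and NFY, which together occupy an element named SXY, while interferon and NF-kB act through elements further upstream.

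Promoters of the heavy chain genes HLA-B, HLA-C and HLA-F and of B2M are shown because these genes differed most plainly from each other in the comparisons: HLA-B and HLA-F had the largest EPZ-6438 effects of the 9 in NTG cells, and B2M moved against the others with siMCRS1. Each window runs from 250 bases before to 50 bases after the annotated start (RefSeq, GRCh38.p14), 5′ to 3′ on the strand of the gene. Of the 9 genes 7 matched the promoter table, and HLA-E and NLRC5 did not. HLA-B lies at chr6:31357130-31357429 on the minus strand, HLA-C at chr6:31272043-31272342 on the minus strand, HLA-F at chr6:29723184-29723483 on the plus strand and B2M at chr15:44711267-44711566 on the plus strand. Capitals mark matches, on either strand, to the interferon-stimulated response element in its full form, to a short form of it written GAANNGAAA that lacks 1 A before the unspecified bases, to the core TGACG of CREB/ATF sites, to the NF-kB consensus and to the CCAAT box. Matches may adjoin or overlap, and then share 1 run of capitals.
HLA-B: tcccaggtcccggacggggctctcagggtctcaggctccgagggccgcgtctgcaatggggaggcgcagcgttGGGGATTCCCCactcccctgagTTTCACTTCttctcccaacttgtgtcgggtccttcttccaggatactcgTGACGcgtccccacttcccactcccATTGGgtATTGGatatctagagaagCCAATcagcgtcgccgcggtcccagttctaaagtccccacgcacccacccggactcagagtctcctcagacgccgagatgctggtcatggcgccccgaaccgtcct
HLA-C: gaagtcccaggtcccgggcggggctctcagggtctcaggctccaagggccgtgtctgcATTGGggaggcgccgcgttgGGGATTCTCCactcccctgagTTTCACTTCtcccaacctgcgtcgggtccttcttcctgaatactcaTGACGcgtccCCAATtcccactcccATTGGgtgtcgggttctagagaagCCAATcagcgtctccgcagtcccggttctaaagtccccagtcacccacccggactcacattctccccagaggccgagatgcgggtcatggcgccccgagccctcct
HLA-F: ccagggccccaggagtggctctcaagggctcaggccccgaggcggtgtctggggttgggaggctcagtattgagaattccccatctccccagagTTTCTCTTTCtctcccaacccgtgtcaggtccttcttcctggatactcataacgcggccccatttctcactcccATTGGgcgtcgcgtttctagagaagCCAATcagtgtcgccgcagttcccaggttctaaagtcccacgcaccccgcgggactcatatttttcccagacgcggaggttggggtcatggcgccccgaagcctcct
B2M: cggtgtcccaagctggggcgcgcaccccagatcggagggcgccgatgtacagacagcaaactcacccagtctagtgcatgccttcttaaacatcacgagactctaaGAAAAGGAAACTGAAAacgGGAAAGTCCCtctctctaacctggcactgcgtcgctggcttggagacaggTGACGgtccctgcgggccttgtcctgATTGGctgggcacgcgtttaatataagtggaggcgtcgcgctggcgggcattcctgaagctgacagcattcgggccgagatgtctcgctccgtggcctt

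The 3 heavy chain promoters were close relatives of each other. HLA-B and HLA-C were identical at 88.5% of 304 aligned columns, HLA-B and HLA-F at 79.7% and HLA-C and HLA-F at 78.9%, whereas B2M was identical to the 3 at 49.4% to 52.0%. The short interferon element began 155 bases before the start in HLA-B and 151 bases before it in HLA-C. HLA-F held the full element, which began 156 bases before its start, and B2M held 2 overlapping copies of it, the first at 144 bases before. The CREB/ATF core was found in HLA-B, HLA-C and B2M, and its letters were not in the HLA-F window. All 4 windows had at least 1 CCAAT box. The boxes began 81, 74 and 56 bases before the start in HLA-B and 192, 95, 80 and 56 before it in HLA-C. In HLA-F they began 82 and 57 bases before the start, and B2M had its only box at 49. Over 34796 promoters of the same length, 3.57% held the full interferon element, 7.65% the short form, 24.5% the CREB/ATF core, 34.6% a CCAAT box and 5.91% the NF-kB consensus. These matches are a description of letters, and no binding was measured in these libraries.

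Libraries of the INO80 experiment held 17093574 to 25369547 recovered reads and those of the drug experiment 26038505 to 47397233. A floor of 3 reads was worth 2.30 to 3.58 and 2.13 to 4.30 normalized counts, for counting error only. INO80 was lower with siINO80#1 (log2 fold change -1.05) and siINO80#2 (-1.46), and MCRS1 was lower with siMCRS1 by 3.66 on the log2 scale in either treatment, so the targeted genes followed the labels. Genes not targeted moved too. INO80 was lower with siMCRS1 (-0.27 in DMSO, -0.35 in EPZ-6438). Of the EZH2 complex, SUZ12 was lower with siINO80#1 (-0.20), and SUZ12 (-0.60) and EED (-0.49) with siINO80#2. EZH2 was lower with siINO80#2 than with siINO80#1 (-0.43). Their part in the results was not tested. All 8 hepatocyte markers (ALB and APOA1 among them) were expressed in every group, but not at 1 level. With siINO80#2, 4 of the 8 were lower, with log2 fold changes of -1.02 for the regulator HNF4A, -0.84 for APOA1 and -0.59 for TTR. HNF4A was also lower with siINO80#1 (-0.45) and with siMCRS1 (-0.55 in either treatment). In those comparisons HNF4A was the only marker of the 8 lower at an adjusted p under 0.05 with limma. ALB was higher after siMCRS1 under EPZ-6438 (0.57). The median log2 fold change of the 8 markers was 0.03 for siINO80#1. For siMCRS1 the median was 0.11 under DMSO and 0.03 under EPZ-6438. The part of these shifts in the results was not tested. The library siINO80#2 C stood apart from siINO80#2 A and B, with chi-square values per degree of freedom of 84.3 and 121. Between A and B the value was 18.7, and within the other INO80 groups it was 9.45 to 13.2. Calls of MHC class I presentation genes with siINO80#2 are therefore also given without siINO80#2 C. Those of other genes and gene lists are not. Leukocyte markers summed to 35923 to 68439 normalized counts, nearly all of it LYZ, while PTPRC had group means of 12.9 to 22.9 and CD3E of at most 1.08, at 0 in every library of the INO80 experiment. Fibroblast markers (4 genes, none at 0 throughout) summed to 345 to 366 normalized counts in DMSO NTG, 555 to 903 in DMSO siMCRS1, 248 to 397 in EPZ-6438 NTG and 830 to 886 in EPZ-6438 siMCRS1. In the INO80 experiment they summed to 247 to 277 in NTG, 448 to 473 with siINO80#1 and 274 to 304 with siINO80#2, and their part in the results was not tested. Endothelial markers summed to 176 to 340 over all libraries. The labels do not say that the libraries came from separate cultures, so p-values measure only the spread between these libraries, and in bulk RNA fewer cells with a transcript and less transcript per cell cannot be told apart.

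Ordered by normalized counts per kilobase of the canonical transcript in DMSO NTG, B2M stood at 8970, HLA-C at 2794, TAPBP at 808, HLA-E at 664, TAP1 at 539, TAP2 at 220, HLA-B at 150, HLA-F at 31.6 and NLRC5 at 18.3. The order in the NTG libraries of the INO80 experiment was the same, from 4855 for B2M to 13.0 for NLRC5, although the tables were scaled separately and are not compared here. NLRC5 was therefore the scarcest of the 9 per length, and HLA-B was far below HLA-C. Heavy chain genes resemble each other, and reads can be shared: of the 50-base windows of the canonical transcript, 2.56% in HLA-B, 6.76% in HLA-C, 6.16% in HLA-E and 1.89% in HLA-F also occurred in another gene. TAP2 shared 35.3% of its windows with another gene, so its counts are uncertain, and how the alleles of HepG2 map to a reference was not analysed here. The strand setting of the counting is not given in the sources used here, which matters where genes overlap.

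The first question was whether inhibition of EZH2 changes expression of the pathway. With EPZ-6438, HLA-B rose in NTG cells, and it was the only gene of the 9 past the threshold. HLA-B had 235 and 227 normalized counts in the DMSO NTG libraries and 732, 507 and 737 in the EPZ-6438 NTG libraries. Every treated library lay well above both control libraries. The rise was 2.80-fold (log2 fold change 1.49, SE 0.23, 95% interval 0.98 to 1.99, adjusted p = 0.030 with limma), where 0.384% of all genes tested passed in either direction (55 genes, and 2 to 22 without single libraries). Fold changes throughout are on the log2(normalized count + 1) scale, and adjusted p-values are Benjamini-Hochberg over all genes of the table with a threshold of 0.05. The call rested on few libraries: it was lost without DMSO NTG 1 (adjusted p = 0.22), DMSO NTG 3 (0.20), EPZ-6438 NTG 1 (0.060) or EPZ-6438 NTG 3 (0.14), and the fitted effect stayed between 1.40 and 1.67. It was also lost with no filter on low values (adjusted p = 0.051) and with no trend in the variance model (0.066).

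**Figure D1:**
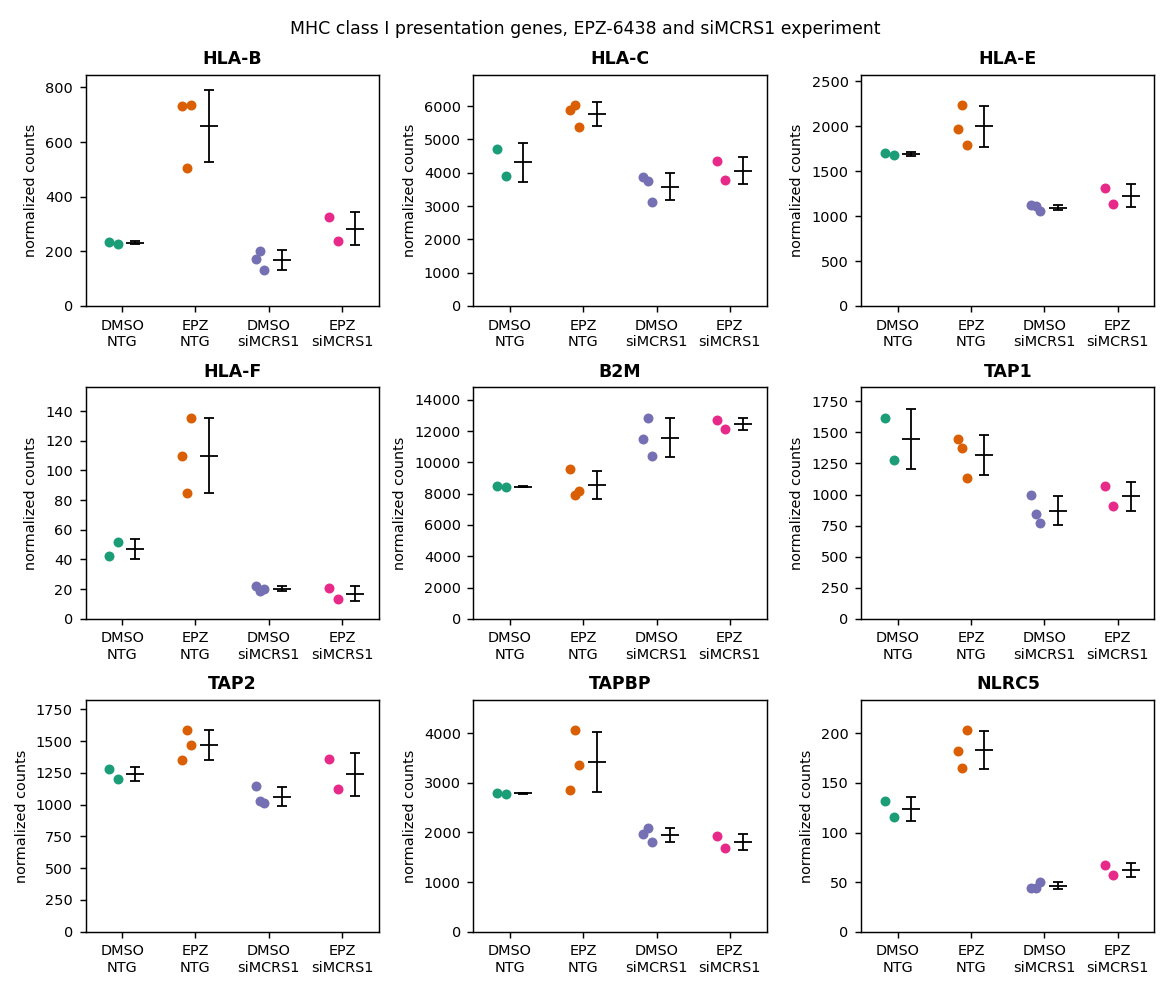
Normalized counts (vertical axes, starting at 0) of the 9 MHC class I presentation genes in each library of the drug experiment, with 1 colored point per library and a black bar for the group mean ± SD (n = 2 or 3). HLA-B reaches 507 to 737 in the 3 EPZ-6438 NTG libraries, above the 227 to 235 of DMSO NTG, and NLRC5 and HLA-F are lowest in the siMCRS1 groups.

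The other heavy chains showed higher values with EPZ-6438 but did not pass. HLA-F, a heavy chain of restricted surface expression, had 42.1 and 51.5 normalized counts in DMSO NTG and 110, 84.5 and 136 in EPZ-6438 NTG, so the groups did not overlap. Its log2 fold change was 1.20 (SE 0.30, 95% interval 0.54 to 1.85, adjusted p = 0.10 with limma). HLA-C, a classical heavy chain that also binds killer cell receptors, had 4720 and 3897 normalized counts in DMSO NTG and 5877, 6041 and 5357 in EPZ-6438 NTG. That difference was 0.42 on the log2 scale (95% interval 0.14 to 0.70, adjusted p = 0.14). HLA-E, which presents leader peptides of other class I chains to NKG2A receptors, differed by 0.24 (95% interval -0.02 to 0.49).

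The coactivator NLRC5 had 132 and 115 normalized counts in DMSO NTG and 182, 165 and 203 in EPZ-6438 NTG. These groups did not overlap either, and the log2 fold change was 0.56 (SE 0.19, 95% interval 0.13 to 0.99, adjusted p = 0.19 with limma). In the peptide loading step the groups of TAP2 and TAPBP did not overlap, with log2 fold changes of 0.24 and 0.28 whose intervals included 0. B2M (0.01, 95% interval -0.24 to 0.27) and TAP1 (-0.13, 95% interval -0.48 to 0.22) had overlapping groups. In all, 7 of the 9 genes lay higher in every EPZ-6438 NTG library than in every DMSO NTG library, against 16.4% of all genes tested that did so. The median log2 fold change of the 9 genes was 0.28, and that of all genes was -0.03.

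In siMCRS1 cells EPZ-6438 gave 0 of 9 genes past the threshold with limma and 0 with edgeR, where 0.0908% of all genes passed with limma (13 genes, and 0 to 26 without single libraries). With limma, 1 of the 9 genes (HLA-B) had an unadjusted p under 0.05, as had 1305 of all 14312 genes. HLA-B had 171, 203 and 130 normalized counts in DMSO siMCRS1 and 326 and 240 in EPZ-6438 siMCRS1. The groups did not overlap, and the log2 fold change was 0.75 (95% interval 0.25 to 1.26, adjusted p = 0.34 with limma). HLA-F had 22.3, 18.7 and 20.1 normalized counts in DMSO siMCRS1 and 20.8 and 13.3 in EPZ-6438 siMCRS1, the log2 fold change being -0.27 with a 95% interval from -0.92 to 0.38. HLA-F thus did not lie higher with the inhibitor when MCRS1 was depleted. NLRC5 had 44.5, 44.1 and 50.1 normalized counts in DMSO siMCRS1 and 67.2 and 56.8 in EPZ-6438 siMCRS1 (log2 fold change 0.41, 95% interval -0.01 to 0.84). Along with HLA-B and HLA-E, NLRC5 was 1 of 3 genes whose groups did not overlap, all with higher values in EPZ-6438, compared with 11.9% of all genes.

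The difference between the EPZ-6438 effects in NTG and in siMCRS1 cells was tested as an interaction. With limma, 0 of 9 genes and 0 of 14312 genes in all (0%) passed, 336 genes in all had an unadjusted p under 0.05, and edgeR also called 0. Of the 9, HLA-F (interaction -1.47 on the log2 scale, 95% interval -2.39 to -0.54, unadjusted p = 0.0052) and HLA-B (-0.73, 95% interval -1.45 to -0.02, unadjusted p = 0.045) had an unadjusted p under 0.05, and both had an adjusted p of 1.00. For NLRC5 the interaction was -0.15 with a 95% interval from -0.75 to 0.46. Over all genes, calls of the interaction numbered 3 without DMSO siMCRS1 1, 2 without EPZ-6438 NTG 1 and 1 without DMSO siMCRS1 3.

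With siMCRS1 in DMSO, NLRC5, HLA-E, HLA-F, TAP1 and TAPBP fell and B2M rose. These were 6 of the 9 genes, 1 higher and 5 lower with limma, where 47.7% of all genes passed in either direction, 23.1% higher and 24.6% lower. The median log2 fold change of the 9 was -0.51, against 0.00 over all genes. NLRC5 fell the most: 132 and 115 normalized counts in DMSO NTG stood against 44.5, 44.1 and 50.1 in DMSO siMCRS1. Every siMCRS1 library lay far below both control libraries. The log2 fold change was -1.40 (SE 0.19, adjusted p = 0.00024), a drop that stayed past the threshold without any single library.

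Heavy chains fell as well with siMCRS1 in DMSO. HLA-F went from 42.1 and 51.5 normalized counts to 22.3, 18.7 and 20.1 (log2 fold change -1.16, SE 0.30, adjusted p = 0.0081 with limma), and the call was lost without DMSO NTG 3 (adjusted p = 0.067). HLA-E went from 1709 and 1676 normalized counts to 1121, 1110 and 1059, a tight pair of groups (log2 fold change -0.63, SE 0.12, adjusted p = 0.0013). HLA-B (log2 fold change -0.48, 95% interval -0.98 to 0.03) and HLA-C (-0.27, 95% interval -0.55 to 0.01) lay lower in every siMCRS1 library but did not pass. With the libraries rescaled to the same total, which moved the median of all genes with siMCRS1 to -0.23, both passed at -0.71 and -0.50. With quantile normalization HLA-C also passed (-0.47), while HLA-B stood at -0.17 (adjusted p = 0.58), and without DMSO siMCRS1 3 HLA-B stood at -0.31 (0.30).

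In the loading machinery, TAP1 went from 1619 and 1278 normalized counts in DMSO NTG to 995, 846 and 769 in DMSO siMCRS1, without overlap. The log2 fold change was -0.73 (SE 0.16, adjusted p = 0.0032 with limma). TAPBP went from 2797 and 2777 normalized counts to 1964, 2089 and 1811 (log2 fold change -0.51, adjusted p = 0.011), a call lost without DMSO NTG 1 (adjusted p = 0.060). TAP2, the partner subunit of the transporter, had 1281 and 1205 normalized counts in DMSO NTG and 1147, 1025 and 1014 in DMSO siMCRS1 (log2 fold change -0.23, 95% interval -0.49 to 0.04), and passed at -0.46 after rescaling to the same total.

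B2M moved the other way. It had 8480 and 8437 normalized counts in DMSO NTG and 11507, 12868 and 10399 in DMSO siMCRS1, all above the controls. The log2 fold change was 0.45 (SE 0.12, adjusted p = 0.0084 with limma). That call depended on the scaling: it was 0.21 (adjusted p = 0.14) after rescaling to the same total, on which scale the median of all genes was -0.23, and 0.15 (adjusted p = 0.31) after quantile normalization. Relative to the other 8 genes, all of which had lower group means with siMCRS1, the light chain was the exception under each of these scalings. Groups did not overlap for all 9 genes, 8 lower and 1 higher, against 33.5% and 33.3% of all genes in those directions.

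With EPZ-6438 present, siMCRS1 left 8 of the 9 genes past the threshold with limma, 1 higher and 7 lower, where 53.7% of all genes passed, 26.8% higher and 26.9% lower (7686 genes in all, and 5070 without EPZ-6438 siMCRS1 B). The libraries differ from those of the DMSO comparison, but all entered 1 fit. HLA-F showed the widest gap, with 110, 84.5 and 136 normalized counts in EPZ-6438 NTG and 20.8 and 13.3 in EPZ-6438 siMCRS1. It fell by 83.8% (log2 fold change -2.63, SE 0.30, adjusted p = 5.0e-05 with limma). NLRC5 had 182, 165 and 203 normalized counts against 67.2 and 56.8 (log2 fold change -1.55, SE 0.19, adjusted p = 9.2e-05).

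HLA-B had 732, 507 and 737 normalized counts in EPZ-6438 NTG and 326 and 240 in EPZ-6438 siMCRS1 (log2 fold change -1.21, SE 0.23, adjusted p = 0.0012 with limma). HLA-E (log2 fold change -0.70) and TAPBP (-0.91) also fell. HLA-C fell by 0.51 on the log2 scale, a call lost without EPZ-6438 siMCRS1 B (adjusted p = 0.079), and by 0.77 with quantile normalization. TAP1 fell by 0.42 (adjusted p = 0.044), and that call was lost without EPZ-6438 NTG 1 (0.12), EPZ-6438 NTG 2 (0.099), EPZ-6438 siMCRS1 A (0.051) or EPZ-6438 siMCRS1 B (0.27), with no filter on low values (0.069) and with no trend (0.070), while the effect was -0.66 after rescaling to the same total. TAP2, at -0.25 (95% interval -0.51 to 0.02), was the gene that did not pass, and the only one of the 9 with overlapping groups, where 34.3% of all genes lay higher without overlap and 34.8% lower. It passed at -0.49 after rescaling to the same total and at -0.30 after quantile normalization. B2M had 9595, 7918 and 8166 normalized counts in EPZ-6438 NTG and 12720 and 12163 in EPZ-6438 siMCRS1 (log2 fold change 0.54, adjusted p = 0.0024), with 0.31 (adjusted p = 0.041) after rescaling to the same total and 0.16 (adjusted p = 0.25) after quantile normalization.

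**Figure D2:**
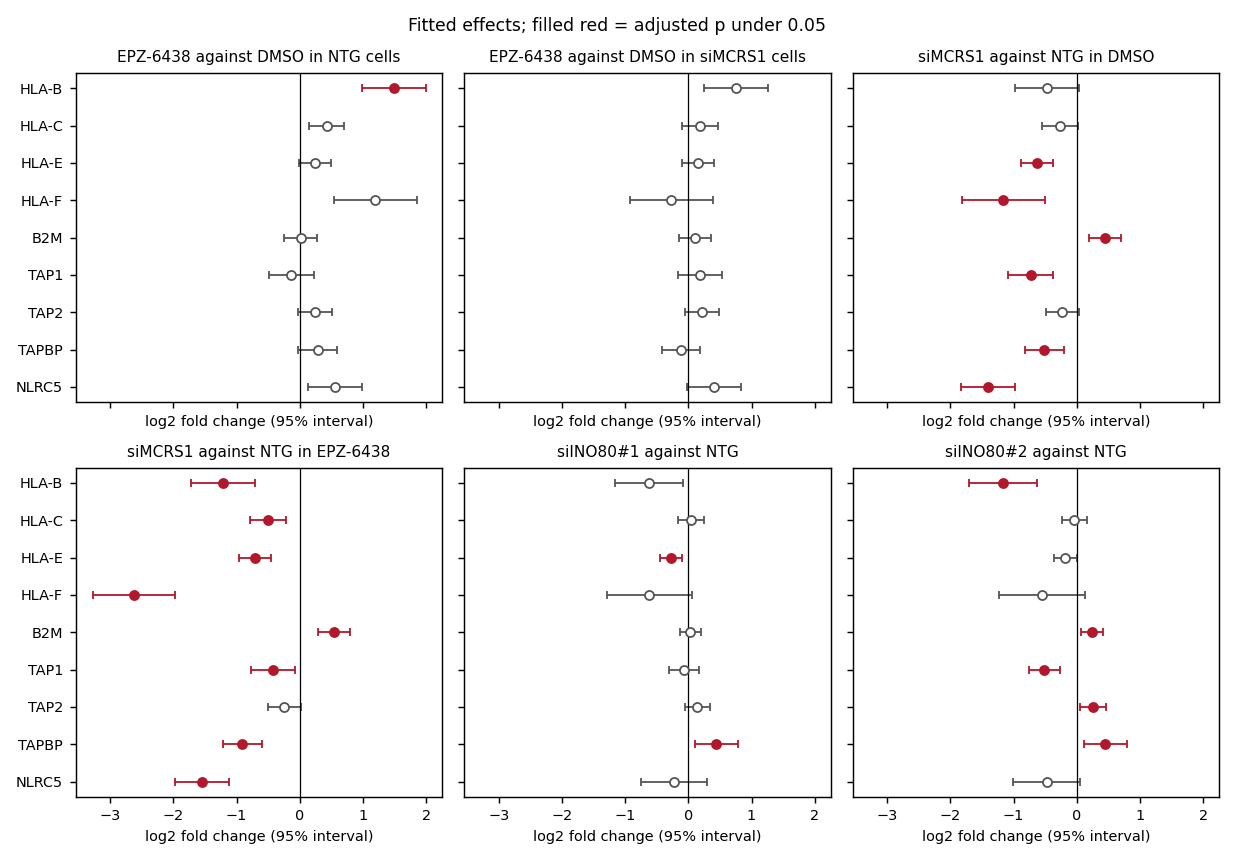
Fitted log2 fold changes (horizontal axes) with 95% intervals from limma for the 9 genes in 6 comparisons, where filled red points passed an adjusted p of 0.05 and open gray points did not. HLA-B at 1.49 is the only filled point for EPZ-6438, and with siMCRS1 B2M is the only gene to the right of 0.

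Across the 4 groups of the drug experiment the order of the group means differed between genes. HLA-B was lowest in DMSO siMCRS1 (168 ± 36.3 normalized counts, SD, n = 3), followed by DMSO NTG (231 ± 5.26, n = 2), EPZ-6438 siMCRS1 (283 ± 61.3, n = 2) and EPZ-6438 NTG (658 ± 131, n = 3). Its neighbors DMSO NTG and EPZ-6438 siMCRS1 lay within 1 SD of the latter. NLRC5 was ordered by the siRNA first: DMSO siMCRS1 (46.2 ± 3.38) and EPZ-6438 siMCRS1 (62.0 ± 7.35) were both below DMSO NTG (124 ± 11.8) and EPZ-6438 NTG (183 ± 19.1). For HLA-F the siMCRS1 groups (17.1 ± 5.29 with EPZ-6438 and 20.3 ± 1.78 with DMSO) did not differ beyond their spread.

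The INO80 siRNAs addressed whether lowering the mRNA of the ATPase itself touched the same genes. INO80 mRNA was reduced but not absent, with means of 1264 normalized counts in NTG, 608 with siINO80#1 and 460 with siINO80#2. Its protein was not measured in these libraries. Both siRNAs were compared with the same 3 NTG libraries, so their effects share controls and are given side by side. With siINO80#1, 2 of 9 genes passed with limma, 1 higher and 1 lower, where 41.6% of all genes passed (20.7% higher, 20.8% lower). With siINO80#2, 5 of 9 passed, 3 higher and 2 lower, where 55.0% of all genes passed (26.6% higher, 28.4% lower). The median log2 fold change of the 9 was -0.07 and -0.18, against 0.00 over all genes for each. Groups did not overlap for 1 gene higher and 2 lower with siINO80#1 (27.8% and 29.5% of all genes) and for 3 higher and 2 lower with siINO80#2 (30.0% and 31.4%). Without single libraries the counts ranged from 0 to 2 with siINO80#1, at 0 without siINO80#1 A or NTG C and at 1 without NTG A or NTG B. With siINO80#2 they ranged from 2, without NTG A, to 6, and the count was 5 without siINO80#2 C, with HLA-F in place of TAPBP.

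HLA-B was the heavy chain that fell most with siINO80#2. It had 119, 99.6 and 176 normalized counts in NTG, 84.7, 63.5 and 104 with siINO80#1, and 53.8, 67.4 and 49.1 with siINO80#2. The siINO80#2 libraries lay below all NTG libraries, while those of siINO80#1 overlapped them. The log2 fold change was -1.17 with siINO80#2 (SE 0.24, adjusted p = 0.0020 with limma) and -0.63 with siINO80#1 (95% interval -1.16 to -0.09, adjusted p = 0.060). With siINO80#1, HLA-B passed without NTG B (-0.81, adjusted p = 0.035), without siINO80#1 C (-0.79, 0.042) and after rescaling to the same total (-0.71, 0.0497), and stood at -0.40 (0.23) without NTG C. The siINO80#2 call was kept under every alternative and without any single library, at -1.07 without siINO80#2 C.

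HLA-E had 1166, 1270 and 1315 normalized counts in NTG, 976, 1070 and 1058 with siINO80#1, and 1065, 1198 and 1048 with siINO80#2. It passed with siINO80#1 (log2 fold change -0.27, SE 0.08, adjusted p = 0.019 with limma) but not with siINO80#2 (-0.18, SE 0.08, adjusted p = 0.077). The siINO80#1 call was lost without siINO80#1 A (adjusted p = 0.073), NTG B (0.059) or NTG C (0.075). HLA-F had 49.1, 51.3 and 74.9 normalized counts in NTG, 34.6, 33.7 and 43.7 with siINO80#1, and 39.3, 24.5 and 60.5 with siINO80#2. Its effects of -0.62 and -0.55 on the log2 scale had intervals that included 0 (adjusted p = 0.13 and 0.15). With either siRNA HLA-F was lower than in the NTG library of the same letter for each of A, B and C. With siINO80#1 it passed with the replicate letter as a block (adjusted p = 0.049 with limma) and with only the groups compared in the fit (0.041). With siINO80#2 it passed at -0.86 (adjusted p = 0.021) without siINO80#2 C, and stood at -0.23 (0.49) without siINO80#2 B and -0.36 (0.41) without NTG C. HLA-C stayed near its control level, with log2 fold changes of 0.04 (95% interval -0.16 to 0.24) and -0.04 (95% interval -0.24 to 0.17), the former turning to -0.04 after rescaling to the same total and -0.01 after quantile normalization.

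**Figure D3:**
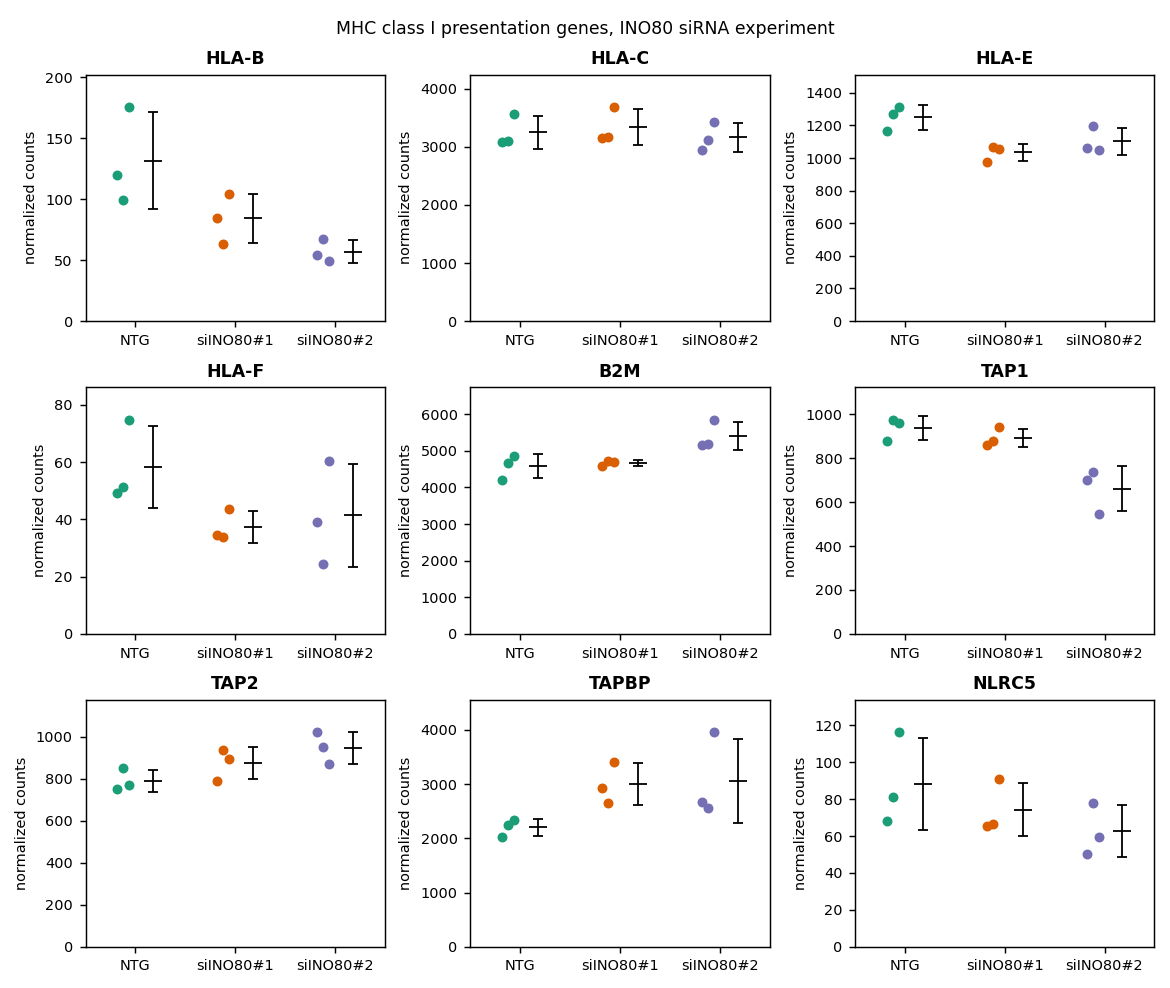
Normalized counts (vertical axes, starting at 0) of the 9 MHC class I presentation genes in the 9 libraries of the INO80 experiment, with 1 colored point per library and a black bar for the group mean ± SD (n = 3). HLA-B at 49.1 to 67.4 and TAP1 at 547 to 739 lie below all NTG libraries with siINO80#2, and TAPBP lies above them with both siRNAs.

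The transporter subunits parted with siINO80#2. TAP1 had 878, 976 and 961 normalized counts in NTG, 860, 877 and 940 with siINO80#1, and 699, 739 and 547 with siINO80#2. It was lower in every siINO80#2 library than in any other library of the experiment. The log2 fold change was -0.51 with siINO80#2 (SE 0.11, adjusted p = 0.0022 with limma), -0.38 without siINO80#2 C (0.0017), and -0.07 with siINO80#1 (95% interval -0.31 to 0.17). TAP2 had 749, 851 and 771 normalized counts in NTG and 1021, 953 and 868 with siINO80#2 (log2 fold change 0.26, adjusted p = 0.034, and 0.32 without siINO80#2 C). That rise did not pass after rescaling to the same total (0.15), with no filter on low values or no trend, nor without NTG A, NTG C, siINO80#2 A or siINO80#2 B.

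TAPBP rose with both siRNAs. It had 2021, 2247 and 2338 normalized counts in NTG, 2928, 2654 and 3413 with siINO80#1, and 2663, 2568 and 3955 with siINO80#2. Every depleted library lay above every NTG library. The log2 fold changes were 0.44 (SE 0.15, adjusted p = 0.040 with limma) and 0.45 (SE 0.15, adjusted p = 0.029). With siINO80#1 the call was kept only without siINO80#1 B among the libraries left out, and it was lost with quantile normalization (adjusted p = 0.078), no filter (0.051) and no trend (0.079). With siINO80#2 it was lost without NTG A (adjusted p = 0.095), NTG B (0.057) or siINO80#2 C (0.060, at an effect of 0.25), and with no trend (0.059).

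B2M had 4214, 4677 and 4844 normalized counts in NTG, 4574, 4709 and 4704 with siINO80#1, and 5168, 5193 and 5852 with siINO80#2. It rose with siINO80#2 by 0.24 on the log2 scale (SE 0.08, adjusted p = 0.021 with limma), which was 0.13 (adjusted p = 0.17) after rescaling to the same total, where the median of all genes was -0.11. The call was also lost without NTG A (adjusted p = 0.091) and in a fit of the compared groups alone (0.051), while the effect was 0.18 (0.044) without siINO80#2 C. With siINO80#1 the difference was 0.03 (95% interval -0.14 to 0.20), and -0.05 after rescaling to the same total. NLRC5 had 68.0, 81.1 and 116 normalized counts in NTG, 65.6, 66.4 and 91.0 with siINO80#1, and 50.5, 78.1 and 59.5 with siINO80#2. All these groups overlapped, and its log2 fold changes were -0.23 (95% interval -0.75 to 0.30) and -0.48 (SE 0.24, adjusted p = 0.11). Single libraries moved both effects: with siINO80#1 the range was -0.40 without NTG A to -0.0159 without NTG C, and with siINO80#2 it was -0.65 without NTG A to -0.26 without NTG C. NLRC5 passed with siINO80#2 only without siINO80#2 B (-0.64, adjusted p = 0.049).

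Compared with each other, the INO80 siRNAs differed in 1 of the 9 genes, where 22.1% of all genes passed with limma (3096 genes, 1948 without siINO80#1 A and 2042 without siINO80#1 C). That gene was TAP1, lower with siINO80#2 by a log2 difference of -0.44 (SE 0.11, adjusted p = 0.016), and the call was lost without siINO80#1 C (adjusted p = 0.061) and kept at -0.31 without siINO80#2 C. For HLA-B the difference was -0.54 (SE 0.24, adjusted p = 0.14), and for NLRC5 it was -0.25 (95% interval -0.77 to 0.28).

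Genes that supply and load peptides were followed in a list of 16, all tested. With siMCRS1 in DMSO, 6 were lower and 3 higher, 56.2% of the list where 47.7% of all genes passed, with a list median of -0.04 against 0.00 over all genes. Members of the immunoproteasome, the interferon-inducible form of the proteasome, were among those that fell. PSMB9, one of its catalytic subunits, had 142 ± 7.08 normalized counts in DMSO NTG (SD, n = 2) and 32.2 ± 9.21 in DMSO siMCRS1 (n = 3), a log2 fold change of -2.15 (SE 0.27, adjusted p = 0.00015 with limma). PSMB8, another catalytic subunit, fell by 1.23 on the log2 scale and ERAP2, an aminopeptidase that trims peptides in the endoplasmic reticulum, by 1.04. The genes that rose were PDIA3 (0.47), a disulfide isomerase of the loading complex, PSMB5 (0.45), the constitutive counterpart of PSMB8, and the chaperone HSPA5 (0.40). In EPZ-6438, 4 were lower and 3 higher with siMCRS1 (43.8%, against 53.7% of all genes), PSMB9 again leading at -2.21.

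With siINO80#1, 4 genes of that list were lower and 1 was higher (31.2%, against 41.6% of all genes), and with siINO80#2, 8 were lower and 1 was higher (56.2%, against 55.0%). As shares of genes called in either direction, these were below or near those of all genes. The directions differed, since most calls in the list were lower with each siRNA. Over all genes, 20.8% were lower and 20.7% higher with siINO80#1, and 28.4% were lower and 26.6% higher with siINO80#2. The list medians were -0.16 and -0.31. PSMB9 had 124 ± 16.2 normalized counts in NTG, 55.9 ± 2.98 with siINO80#1 and 36.1 ± 3.61 with siINO80#2 (SD, n = 3 each), with log2 fold changes of -1.13 and -1.75. CANX, the chaperone calnexin, fell by 0.67 and ERAP2 by 0.62 with siINO80#1, and PSMB10 by 0.78 and PSMB6 by 0.70 with siINO80#2. The siINO80#2 libraries spread widely, with 72.7, 112 and 131 normalized counts for PSMB10 and 718, 1205 and 1219 for PSMB6. In NTG these genes had 161 to 193 and 1636 to 1687, so the lowest siINO80#2 library weighed on both sizes. The genes that rose were PDIA3 (0.27) with siINO80#1 and TAPBPL (0.63), the tapasin-related peptide editor, with siINO80#2. PSMB9 is the head-to-head neighbor of TAP1 on chromosome 6. TAP1 spans chr6:32845209-32853704 on the minus strand and PSMB9 chr6:32854192-32859851 on the plus strand (GRCh38.p14), with 487 bases between them. TAP1, at -0.07 and -0.51 with the INO80 siRNAs and -0.73 with siMCRS1 in DMSO, had smaller fitted effects than this neighbor in each of these comparisons. With EPZ-6438 in NTG cells the 16 log2 fold changes lay between -0.14 and 0.48, and the lowest adjusted p was 0.26.

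Regulators of class I transcription formed a second list of 16, all tested, and they moved in both directions. With siMCRS1 in DMSO 4 rose and 4 fell (50.0%, against 47.7% of all genes), and in EPZ-6438 4 rose and 5 fell (56.2%, against 53.7%), so the shares called were near those of all genes. RFX5, the DNA-binding subunit of the RFX complex, had 1227 ± 156 normalized counts in DMSO NTG (SD, n = 2) and 470 ± 71.6 in DMSO siMCRS1 (n = 3). Its log2 fold change was -1.39 (SE 0.16, adjusted p = 0.00011 with limma) in DMSO and -1.47 in EPZ-6438. STAT2, a transducer of type I interferon, fell by 1.65 in DMSO, and RFXANK, another RFX subunit, by 0.95. NFYA, a subunit of the CCAAT-binding factor NFY, rose in the same cells from 1649 ± 144 to 6104 ± 533 normalized counts (log2 fold change 1.89). ATF1 (1.31) and IRF9 (0.99), the DNA-binding partner of STAT2, rose too.

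With the INO80 siRNAs, 3 of these regulators rose and 3 fell for siINO80#1 (37.5%, against 41.6% of all genes), and 5 rose and 7 fell for siINO80#2 (75.0%, against 55.0%). RFX5 had 921 ± 69.7 normalized counts in NTG, 551 ± 46.6 with siINO80#1 and 634 ± 52.2 with siINO80#2 (SD, n = 3 each), with log2 fold changes of -0.74 and -0.54. RFXAP, the third RFX subunit, had -0.91 and -0.71, and IRF1, an interferon-inducible activator of class I genes, -0.34 and -0.72. NFYA rose by 1.44 and 1.61, IRF9 by 0.93 and 1.64 and ATF1 by 0.71 and 0.69. With EPZ-6438 in NTG cells the 16 effects lay between -0.18 and 0.40, with a lowest adjusted p of 0.18.

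Receptors and kinases of interferon signaling made a list of 9, all tested. With siMCRS1 in DMSO 4 rose and 2 fell (66.7%, against 47.7% of all genes), with siINO80#1 4 rose and 1 fell (55.6%, against 41.6%), and with siINO80#2 6 rose and 2 fell (88.9%, against 55.0%). The feedback inhibitors went apart: SOCS3 rose by 1.57, 1.25 and 1.64 on the log2 scale in those comparisons, while SOCS1 had -0.84, -1.20 and -2.01. With siMCRS1 in DMSO the SOCS1 groups overlapped, with 256 and 483 normalized counts in DMSO NTG and 153 to 263 in DMSO siMCRS1. The kinase TYK2 fell by 1.35 with siMCRS1 in DMSO, and JAK1, its partner at the type I interferon receptor, rose by 0.59. In EPZ-6438, siMCRS1 raised 5 and lowered 2 of the 9 (77.8%, against 53.7% of all genes). With EPZ-6438 in NTG cells the 9 effects lay between -0.97 and 0.32, with a lowest adjusted p of 0.18.

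**Figure D4:**
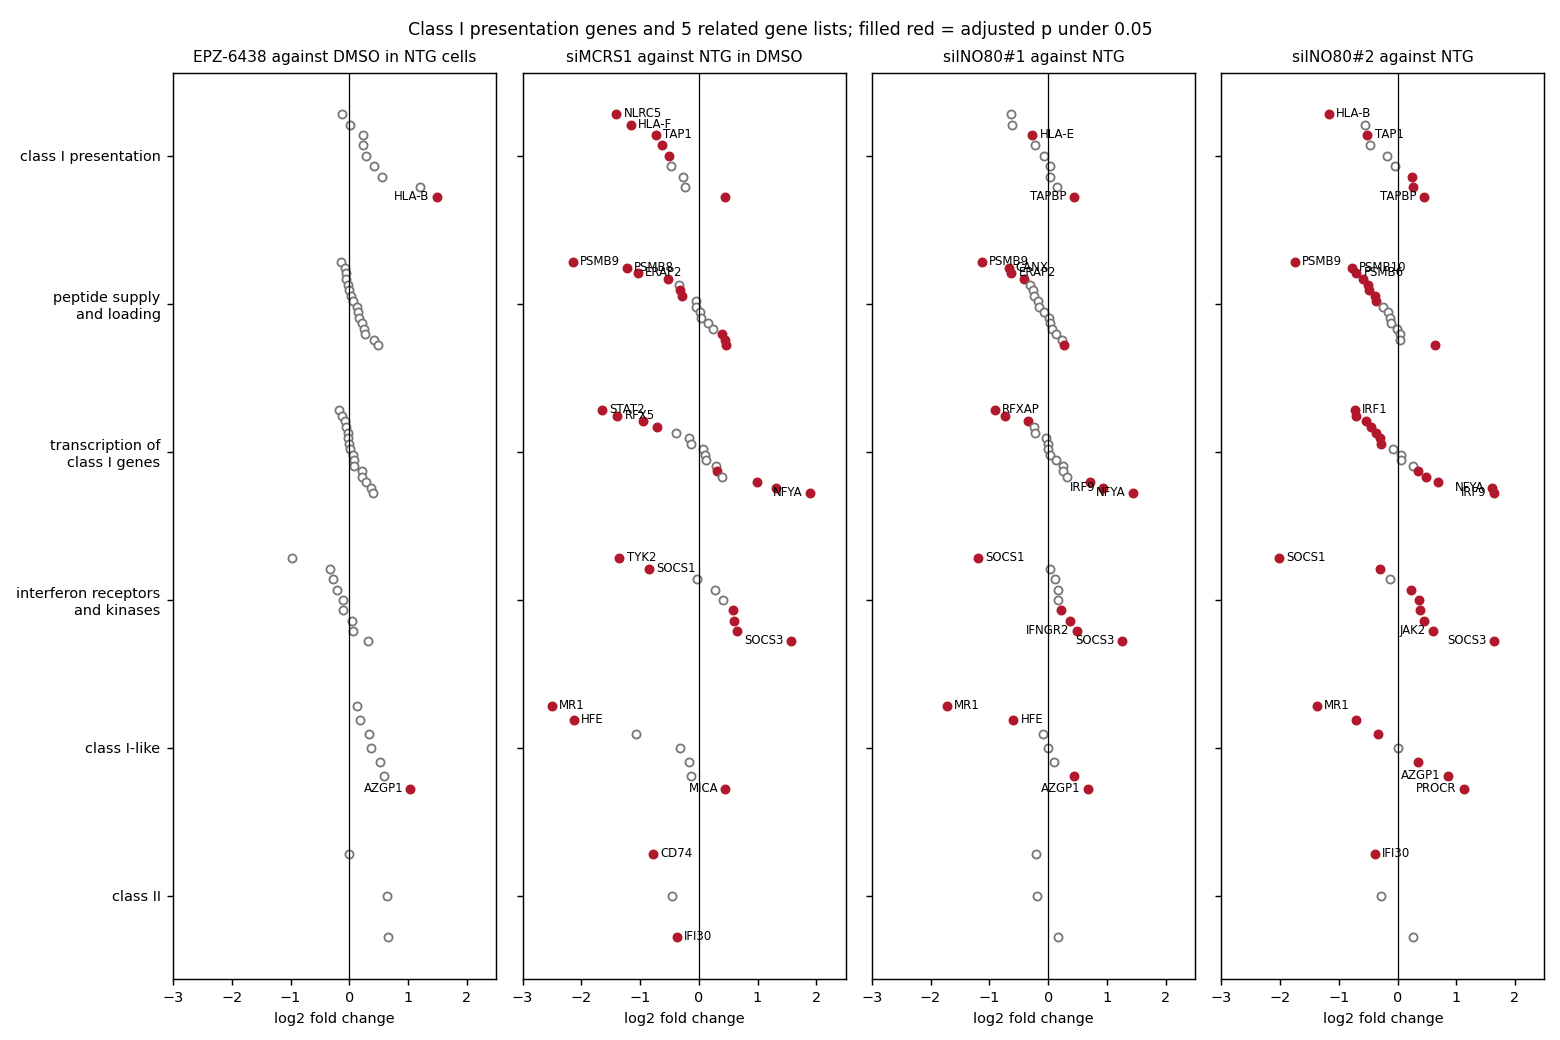
Log2 fold changes (horizontal axes) of the 9 presentation genes and of 5 related lists (rows) in 4 comparisons, with 1 point per gene, filled red where the adjusted p was under 0.05, and names printed for up to 3 called genes per row, those with the largest changes. PSMB9 at -2.15 and RFX5 at -1.39 lie far to the left with siMCRS1 and NFYA at 1.89 far to the right, and few points are filled for EPZ-6438.

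Over 5 effects (each INO80 siRNA against NTG, and each other group of the drug experiment against DMSO NTG), the patterns closest to a member were sought among 11420 genes that averaged 50 or more normalized counts in both tables. The measure was the root mean square difference of log2 effects, a description with no test, since effects share controls. The nearest to NLRC5 were CRAT (0.14), CCDC162P (0.15) and GLI4 (0.16). The nearest to B2M were AAR2 (0.04), ADAM17 (0.05) and PTRH2 (0.05). HLA-B had 1 close gene, ATP10D at 0.09, ahead of HSD17B2 at 0.26 and CYP3A7 at 0.27.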

How the data were processed

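Each experiment has 1 table deposited by the authors, a signal that is never negative and holds normalized counts for 34825 gene symbols. Annotation and strand setting are not given in the sources used here, and the submitters' processing notes name kallisto, DESeq2 and GRCh38 without saying what each was used for. All values (100%) were whole multiples, within 0.01, of 1 step per library, and dividing by it recovered the reads. Replicate pairs (17) differed by more than sampling noise (chi-square per degree of freedom 9.45 to 121). Libraries were grouped by their labels; the columns of the drug table other than those of EPZ-6438 siMCRS1 carry numbers where the labels carry letters, and were assigned by group. The labels of the INO80 experiment share letters but do not say that libraries were paired. Deviations of NTG and siINO80#1 libraries of the same letter correlated at 0.247, 0.263 and 0.135. Those of siINO80#2 with either group correlated at -0.0766 to 0.134, and pairs of different letters at -0.246 to 0.104. These values do not settle which groups were paired.

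Genes averaging 10 or more normalized counts per library (14034 and 14312) were tested on log2(value + 1) with limma 3.58.1 in R 4.3.3 (lmFit, eBayes with a trend), with all groups of a table in 1 fit. The 9 genes and the other lists were chosen with earlier results of these data known. From a list, up to 3 genes in each direction were named, the largest changes past the threshold whose groups did not overlap; values named elsewhere for such a gene repeat it across comparisons. JAK1 and PSMB6 to PSMB10 belong to those lists, and JAK1 was named after its values were seen. Alternatives were pseudocounts of 0.1 and 5, other filters (none, or a mean of 50), rescaling to the same total, quantile normalization, no trend, only the groups compared, each library left out, the replicate letter as a block, and edgeR 4.0.16 (quasi-likelihood, TMM) on the recovered reads. Tests were tested on simulated data only for whether the code recovered added effects. The simulation had the same relative spread for all genes and no library that stood apart. Effects under 1 on the log2 scale were not simulated. Promoters came from RefSeq (GRCh38.p14), and shared windows from GENCODE transcripts lifted to GRCh37. Python 3.11.15, numpy 2.4.6, pandas 2.3.3 and matplotlib 3.10.9 were used.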

Additional observations from a re-analysis of the deposited data

How the results depend on the processing

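Of the effects reported for the 9 genes, 23 were past the threshold, and over 338 alternatives these kept their direction throughout; 294 alternatives also kept the call and 44 did not. Over 757 alternatives for the 49 effects not past the threshold, 17 passed and 23 changed sign. For siINO80#1 the count of the 9 genes past the threshold was 2, and it was 1 with no filter, with quantile normalization and with no trend, and 0 to 2 without single libraries. Over the alternatives that kept all libraries its highest value was 3. For siINO80#2 it was 5, and 3 with no trend, at most 6 with all libraries kept, and 2 to 6 without single libraries. Between the INO80 siRNAs it was 1, and 0 to 1 without single libraries. For EPZ-6438 in NTG cells it was 1, and 0 with no filter and with no trend and 0 to 1 without single libraries. With siMCRS1 it was 6 in DMSO (6 to 8 over alternatives with all libraries kept, 5 to 6 without single libraries). In EPZ-6438 it was 8 (7 to 9 and 6 to 8). Over all genes the EPZ-6438 count in NTG cells was 55, and 20 with no filter, 19 with no trend, 85 with quantile normalization and 128 with only the groups compared, and 2 to 22 without single libraries. In siMCRS1 cells it was 13, and 4, 7 and 3 with no filter, with no trend and with only the groups compared, and 0 to 26 without single libraries.

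The replicate block of the INO80 experiment gave a count of 2 between the siRNAs, as B2M passed at 0.21. It also brought HLA-F with siINO80#1 (-0.62) and HLA-E with siINO80#2 (-0.18) past the threshold, and changed no other call of the 9 genes. For NTG and siINO80#1 libraries sharing a letter, every correlation of deviations was over 0.1. Those of siINO80#2 with NTG (-0.0766 to 0.0946) and with siINO80#1 (0.00364 to 0.134) were not all so, and pairs of different letters reached 0.104. No block was fitted in the drug experiment, where columns outside EPZ-6438 siMCRS1 are numbered and the labels are lettered. Effects that changed sign were HLA-C with siINO80#1 (-0.0420 rescaled to the same total, -0.0127 with quantile normalization), B2M with siINO80#1 (-0.0525 rescaled), TAPBP (-0.0186 rescaled) and HLA-F (-0.00094 with quantile normalization) between the INO80 siRNAs. Without single libraries, those that changed sign ranged from -0.0349 to 0.109 for HLA-C and -0.0300 to 0.0706 for B2M with siINO80#1, -0.0979 to 0.0325 for HLA-C with siINO80#2, -0.190 to 0.122 for TAPBP and -0.249 to 0.385 for HLA-F between the siRNAs, -0.0730 to 0.0656 for B2M and -0.303 to 0.0384 for TAP1 with EPZ-6438 in NTG cells, -0.573 to 0.0338 for HLA-F in siMCRS1 cells, and -0.182 to 0.0293 for HLA-E and -0.158 to 0.120 for TAP2 as interactions. The cause was not tested. Depth limits HLA-F and NLRC5 most, with 14 to 129 and 35 to 232 reads per library in the drug experiment.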

Other observations

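Genes related to class I, which fold like heavy chains but mostly do not present peptides, formed a list of 8, of which 7 were tested. MR1, which presents vitamin B metabolites to MAIT cells, had 635 ± 91.2 normalized counts in DMSO NTG (SD, n = 2) and 111 ± 12.6 in DMSO siMCRS1 (n = 3), a log2 fold change of -2.51 (SE 0.20, adjusted p = 1.6e-05 with limma). It had 697 ± 48.4 in NTG, 210 ± 11.1 with siINO80#1 and 267 ± 8.59 with siINO80#2 (n = 3 each), with log2 fold changes of -1.73 and -1.38. HFE, the regulator of iron uptake that is mutated in hemochromatosis, fell by 2.13 with siMCRS1 in DMSO and by 0.59 and 0.71 with the INO80 siRNAs. MICA, a stress ligand of the receptor NKG2D, rose by 0.45, 0.44 and 0.35 in the same comparisons. Counts were 1 higher and 2 lower with siMCRS1 in DMSO (42.9% of the 7, against 47.7% of all genes), 2 and 2 with siINO80#1 (57.1%, against 41.6%) and 3 and 3 with siINO80#2 (85.7%, against 55.0%). In EPZ-6438, siMCRS1 lowered 4 and raised 0 by limma (57.1%, against 53.7%), with 5 of the 7 at an unadjusted p under 0.05, as were 8426 of all 14312 genes. AZGP1, a secreted lipid-mobilizing glycoprotein, was the gene of this list that passed with EPZ-6438 in NTG cells, with 419 ± 97.1 normalized counts in DMSO NTG and 851 ± 56.8 in EPZ-6438 NTG (log2 fold change 1.04, SE 0.18, adjusted p = 0.045).

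Of 8 genes of class II presentation, 3 were tested (CD74, HLA-DMA and IFI30), and HLA-DRA had 0 reads in every library of the drug experiment. CD74, the invariant chain that guides class II molecules, had 1403 ± 72.1 normalized counts in DMSO NTG and 839 ± 240 in DMSO siMCRS1, a log2 fold change of -0.78 (adjusted p = 0.011 with limma). IFI30, a lysosomal thiol reductase, fell by 0.37, so 2 of the 3 were lower with siMCRS1 in DMSO (66.7%, against 47.7% of all genes). CD74 did not fall in every comparison. It had 1986 to 2605 normalized counts in EPZ-6438 NTG, above the 1352 to 1454 of DMSO NTG but not past the threshold. In the INO80 experiment CD74 was higher with siINO80#2 than with siINO80#1 by 0.45. CIITA, the class II relative of NLRC5, had log2 fold changes of 0.39 with siMCRS1 in DMSO and 0.31 and 0.27 with the INO80 siRNAs, none past the threshold.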
